A study of Mus musculus with 1627 samples.

Results

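The cells described here, called members, are the regulatory T cells (Tregs) of injured muscle and of spleen that hold at least 2 UMIs (unique molecular identifiers, each standing for 1 captured transcript) summed over 16 genes of S phase and mitosis: Mki67, Top2a, Birc5, Cdk1, Ccnb1, Ccnb2, Ccna2, Cdc20, Ube2c, Tpx2, Nusap1, Cdca8, Plk1, Stmn1, Tyms and Rrm2. They were 10.57% of 1627 profiled cells, and numbered 55 in muscle library 1 (8.16% of its cells), 83 in muscle library 2 (11.96%) and 34 in the spleen library (13.13%). These measured counts chose the cells, so the levels of the 16 genes describe the choice and support nothing. The other genes were used to ask whether the cells so chosen carried the rest of the cell cycle programme. They did in part: summed together, cells with 5 or more score UMIs did in all 3 libraries, in each through some of the cells only. Cells with exactly 2 did not in any. The set is therefore called by its rule.

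All cells came from male B6 Foxp3-Ires-Gfp mice of 8 months, in which green fluorescent protein marks cells that transcribe Foxp3, the defining transcription factor of Tregs. Muscle had been injured 4 days earlier with cardiotoxin, a snake venom toxin that kills muscle fibres, and the spleen cells came from mice injured in the same way. No library of uninjured mice was analysed here. Live CD4+ TCRb+ GFP+ cells were sorted and barcoded in droplets by inDrops, which primes at the poly(A) tail. No animal is named for a cell, and the muscle library labelled rep2 is not said to come from other animals, so each library is 1 sample, no test was made, and every interval below is an exact 95% interval that covers counting error only.

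Cells that divide copy their DNA in S phase and separate it in mitosis. S phase genes, such as those for the MCM helicase and for nucleotide synthesis, are transcribed under E2F factors, and mitotic genes later under MuvB complexes that bind the CHR element (cell cycle genes homology region), often with NF-Y at CCAAT boxes. Resting lymphocytes keep both sets low and transcribe inhibitors of division such as Cdkn1b and Btg1. Tregs gather in muscle after injury, where they help repair, and division inside the tissue is one known source of them.

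The promoters of 5 score genes are shown because many of the genes that chose the cells hold these elements, though the windows of Tyms, Birc5 and Nusap1 held none. They were taken from RefSeq (GRCm38.p6), run from 250 bases before to 50 after the start, and were picked for holding the most kinds of motif, ties by UMIs. Capitals mark the CHR (TTTGAA), the CCAAT box (CCAAT) and the E2F motif (TTTCCCGC, TTTGGCGC or TTTCGCGC), each searched on both strands, where ATTGG and TTCAAA are the opposite strand.
Cdk1 (chr10:69352863-69353162, minus strand): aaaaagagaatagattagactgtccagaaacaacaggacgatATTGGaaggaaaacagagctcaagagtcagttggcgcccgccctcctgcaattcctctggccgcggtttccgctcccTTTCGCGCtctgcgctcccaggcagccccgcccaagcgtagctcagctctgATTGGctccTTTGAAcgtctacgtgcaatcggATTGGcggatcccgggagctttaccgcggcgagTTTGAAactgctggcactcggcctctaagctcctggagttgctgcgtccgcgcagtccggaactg
Ube2c (chr2:164769679-164769978, plus strand): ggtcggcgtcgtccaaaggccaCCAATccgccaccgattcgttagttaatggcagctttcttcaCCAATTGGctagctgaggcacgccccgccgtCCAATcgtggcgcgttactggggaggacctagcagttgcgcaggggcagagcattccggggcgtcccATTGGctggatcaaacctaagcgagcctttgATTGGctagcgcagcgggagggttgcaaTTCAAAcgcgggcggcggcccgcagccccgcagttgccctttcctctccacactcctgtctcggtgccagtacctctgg
Top2a (chr11:99024140-99024439, minus strand): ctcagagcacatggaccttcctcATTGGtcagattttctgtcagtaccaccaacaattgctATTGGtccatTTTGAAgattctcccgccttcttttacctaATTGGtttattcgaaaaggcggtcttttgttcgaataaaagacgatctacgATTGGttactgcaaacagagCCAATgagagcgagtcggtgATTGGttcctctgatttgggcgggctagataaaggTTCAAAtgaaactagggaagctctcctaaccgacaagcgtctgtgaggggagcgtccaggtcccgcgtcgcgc
Mki67 (chr7:135716330-135716629, minus strand): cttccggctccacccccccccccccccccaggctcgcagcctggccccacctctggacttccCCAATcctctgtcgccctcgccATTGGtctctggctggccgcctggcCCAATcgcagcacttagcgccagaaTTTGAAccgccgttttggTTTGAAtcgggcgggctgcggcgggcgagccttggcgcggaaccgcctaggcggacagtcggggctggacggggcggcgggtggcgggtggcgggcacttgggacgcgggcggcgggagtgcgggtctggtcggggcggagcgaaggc
Ccnb2 (chr9:70421505-70421804, minus strand): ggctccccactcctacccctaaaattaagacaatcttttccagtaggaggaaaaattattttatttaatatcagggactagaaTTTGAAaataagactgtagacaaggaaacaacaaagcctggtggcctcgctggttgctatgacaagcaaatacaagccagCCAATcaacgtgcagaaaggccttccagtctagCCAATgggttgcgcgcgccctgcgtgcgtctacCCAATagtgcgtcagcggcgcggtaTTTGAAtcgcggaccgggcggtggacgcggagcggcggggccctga
In Ccnb2, a B-type cyclin of mitosis, 3 CCAAT boxes began 87, 54 and 21 bases before the start and a CHR lay 5 bases after it. In Ube2c, the ubiquitin carrier of the anaphase-promoting complex, a CCAAT box and one of the opposite strand next to it overlap, and a CHR on the opposite strand lay 29 bases before the start. Of the 13 score genes with a window, 8 (61.5%) held a CHR, against 17.9% of all 32851 RefSeq windows, and 10 (76.9%) held a CCAAT box, against 37.4%. Both stood in the same window in 8 of 13, against 6.95% of all windows. The E2F motif was in 1 of 13 (7.69%), that of Cdk1, the mitotic kinase, against 1.84% of all windows. The lists of genes outside the score divided in the same way: the CHR was in 64.6% of 65 windows of mitotic genes and in 17.1% of 41 windows of S phase genes, and the E2F motif in 3.08% and in 34.1%. A match is a description of letters, not a bound site.

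Members were deeper than the other cells of their library. Their median UMI count was 3023 against 1938 in muscle library 1, 3770 against 2407 in muscle library 2 and 4485 against 3489 in spleen. A cell with more UMIs has more chances to show 2 of them from the score, so the share was measured again after each cell was thinned at random to 1000 UMIs, with shallower cells left out (26, 7 and 0 cells in that order of libraries). The thinned share was 3.55% (23 cells, interval 2.26 to 5.28) in muscle library 1, 3.93% (27 cells, 2.61 to 5.67) in muscle library 2 and 5.41% (14 cells, 2.99 to 8.90) in spleen. The intervals of muscle and spleen overlapped, so no difference between the tissues was detectable at this depth. Without thinning the shares were 8.16% (6.21 to 10.5), 11.96% (9.64 to 14.6) and 13.13% (9.27 to 17.9). Fewer UMIs removed the order of the libraries, since thinning to the UMI count of the shallowest cell gave 3.12%, 2.74% and 2.70%. The sort holds no cell type known to lack these genes, so the share that free RNA in the droplets would give was not measured.

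**Figure D1:**
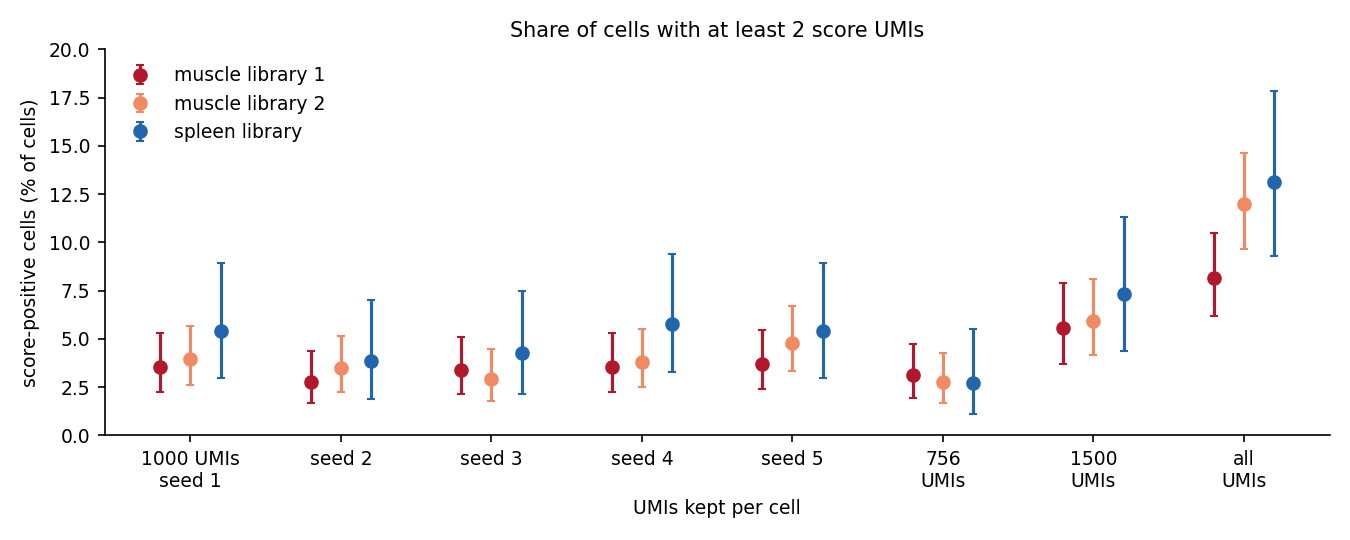
Share of cells with at least 2 score UMIs (percent of cells, vertical axis) in each library, for cells thinned to 1000 UMIs under 5 random seeds, to 1500 UMIs or the UMI count of the shallowest cell, or not thinned (horizontal axis); bars are exact binomial intervals. The intervals of the 3 libraries overlap at every setting, and the share grows with the UMIs kept, with spleen at 2.70% with the fewest UMIs and at 13.13% with all of them.

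Score UMIs sat in few cells. Cells with 5 or more, called high-score cells here, numbered 17 in muscle library 1, 27 in muscle library 2 and 11 in spleen (2.52%, 3.89% and 4.25% of cells), and held 64.6%, 59.9% and 65.1% of all score UMIs of their libraries. Their median score was 8, 7 and 8, and the highest was 88, 53 and 80. Just inside the threshold were 72 cells with exactly 2 score UMIs (4.42% of all cells), and just outside were the 14.8% of cells with exactly 1. The genes behind the score also differed with its size. Of the 72 cells at the threshold, 40 held both UMIs from a single gene. Of the 55 high-score cells, 34 held at least 3 different score genes and 9 only 1.

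Stmn1, whose product stathmin destabilises microtubules, was the most frequent score gene of high-score cells: it was detected in 39 of 55 (70.9%) and gave 22.6% of their score UMIs. It was detected in 21 members against 7 other cells of muscle library 1, in 32 against 11 of muscle library 2 and in 13 against 1 of spleen. Top2a, the topoisomerase that untangles chromosomes, had 76 against 17, 53 against 9 and 27 against 1 UMIs in the same order. Ccnb2 had 36 against 2, 33 against 1 and 15 against 1, and Ccna2, the cyclin of S phase and G2, had 17 against 1, 20 against 2 and 5 against 1. Birc5, the survivin subunit of the chromosomal passenger complex, was uneven, with 23 against 8 UMIs in muscle library 1, 4 against 5 in muscle library 2 and 20 against 5 in spleen. Plk1, the polo kinase of mitosis, was found in 6 high-score cells (10.9%). Ube2c led among cells with a single score UMI, where it gave 18.3% of them. All these genes helped choose the cells, so their excess is a description. Top2a lies on the minus strand of chromosome 11 at 98992943 to 99024189 and Stmn1 on the plus strand of chromosome 4 at 134468320 to 134473843 (GRCm38, GENCODE M21).

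Genes that the rule did not use showed where the choice finds cycling cells. In CPM (UMIs of a gene or list per 1000000 UMIs of the summed cells), the S phase list (47 genes of DNA replication) stood at 4364 in high-score cells of muscle library 1, at 2461 in cells with 3 to 4 score UMIs, at 1352 (1097 to 1647) with exactly 2, at 1272 with 1 and at 1204 with 0. In muscle library 2 the same steps were 3549, 3139, 1074 (905.0 to 1265) and 1090, and the interval with 0 was 953.5 to 1064. The 5 bands of spleen gave 3240, 662.4, 925.1 (644.4 to 1287), 1090 and 1171. Cells with exactly 2 score UMIs therefore lay level with cells of 0 or 1, within counting error, in every library. In spleen, cells with 3 to 4 score UMIs were no higher either, at 662.4 CPM (466.4 to 913.0). The high-score cells of spleen were uneven: those with scores of 41 and 19 held 75 and 71 S phase UMIs. Their median was 3 S phase UMIs, against 2 in spleen cells with exactly 2 score UMIs. High-score cells of muscle were uneven too, with 0 to 84 S phase UMIs in library 1 and 0 to 76 in library 2. The median of these cells was 8 in each muscle library.

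The mitotic list (70 genes of spindle, kinetochore and cytokinesis, score genes left out) gave the same picture. In muscle library 1 its level was 5703 CPM in high-score cells, 2195 with 3 to 4 score UMIs, 1628 (1347 to 1949) with 2, 1301 with 1 and 1550 with 0. It was 3522, 2137, 1660 (1448 to 1893), 1569 and 1511 CPM in muscle library 2. In spleen it was 4615, 1468, 1374 (upper bound 1802), 1456 and 1395 CPM. A single spleen cell with a score of 80 held 55.96% of the mitotic UMIs of the 11 high-score spleen cells, and without it their level was 2227 CPM. The median of these 11 cells was 6 mitotic UMIs, against 5 in spleen cells with exactly 2 score UMIs. The top-scoring cell mattered less in muscle, where the level without it was 5044 CPM in library 1 and 3250 CPM in library 2.

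**Figure D2:**
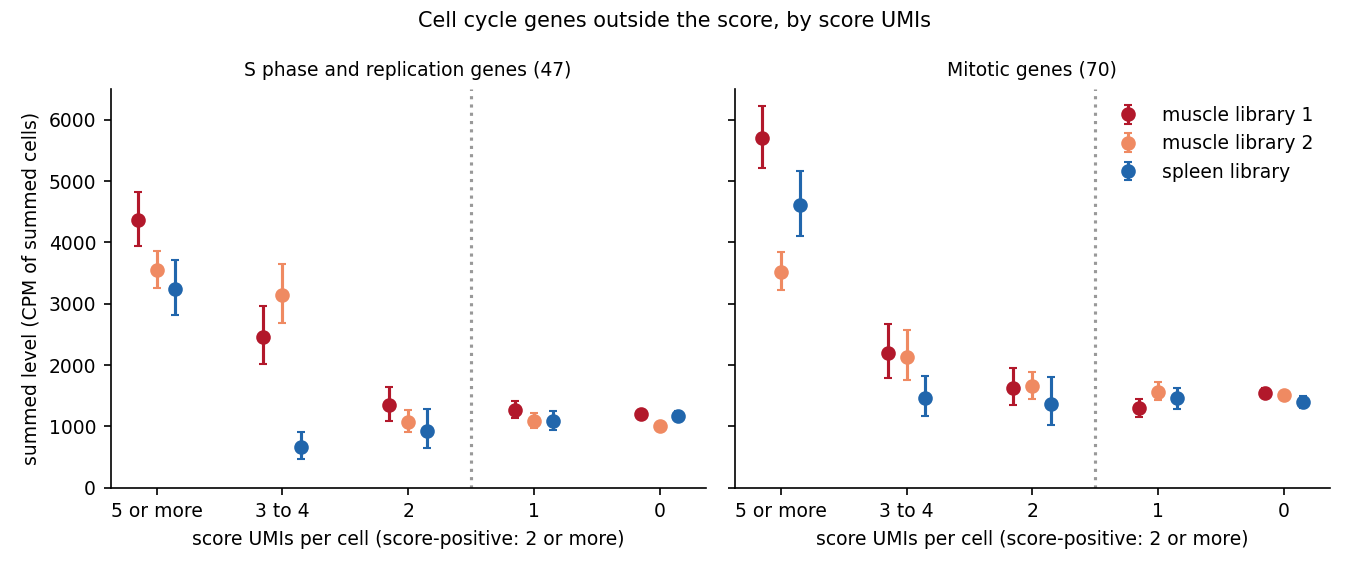
Summed level (CPM over the cells of a band, vertical axis) of S phase genes (left) and mitotic genes (right) outside the score, by score UMIs per cell (horizontal axis) in the 3 libraries; bars are exact Poisson intervals and the dotted line divides members from other cells. High-score cells, summed, stand well above cells with 2, 1 or 0 score UMIs in each library, at 3240 to 4364 CPM for S phase genes. In muscle library 2 their S phase interval (3251 to 3866) overlaps that of cells with 3 to 4 score UMIs (2680 to 3655). Cells with 2 score UMIs stand level with cells of 1 or 0.

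The number of different score genes separated the members in part. Members with at least 3 score genes had 3233 CPM of S phase genes in muscle library 1, 4061 in muscle library 2 and 4802 in spleen, and 7262, 4091 and 7090 CPM of mitotic genes. Members whose UMIs all came from 1 gene had 1958, 1401 and 702.3 CPM of S phase genes and 2002, 1939 and 1352 CPM of mitotic genes. Cells with no score UMI had 1204 CPM of S phase genes in muscle library 1 and 1171 CPM in spleen, with an interval of 953.5 to 1064 CPM in muscle library 2, and 1550, 1511 and 1395 CPM of mitotic genes. Members with 1 score gene thus lay above cells with no score UMI in both muscle libraries, beyond counting error, but not in spleen. Among the members, 39 held at least 3 score genes, 58 held 2 and 75 (43.6%) held 1.

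Most high-score cells held at least 1 UMI of each list, but so did most cells at the threshold. S phase and mitotic UMIs outside the score were found together in 16 of 17 high-score cells of muscle library 1, 23 of 27 of muscle library 2 and 8 of 11 of spleen. In cells with exactly 2 score UMIs the counts were 22 of 23, 30 of 39 and 7 of 10, so this does not set high-score cells apart. Mitotic UMIs outnumbered S phase UMIs in 11, 15 and 5 of the high-score cells, and the reverse held in 6, 11 and 6. The largest S phase counts in any cell were 84, 76 and 75 UMIs. The spleen cell with the most mitotic UMIs had 1 S phase UMI.

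**Figure D3:**
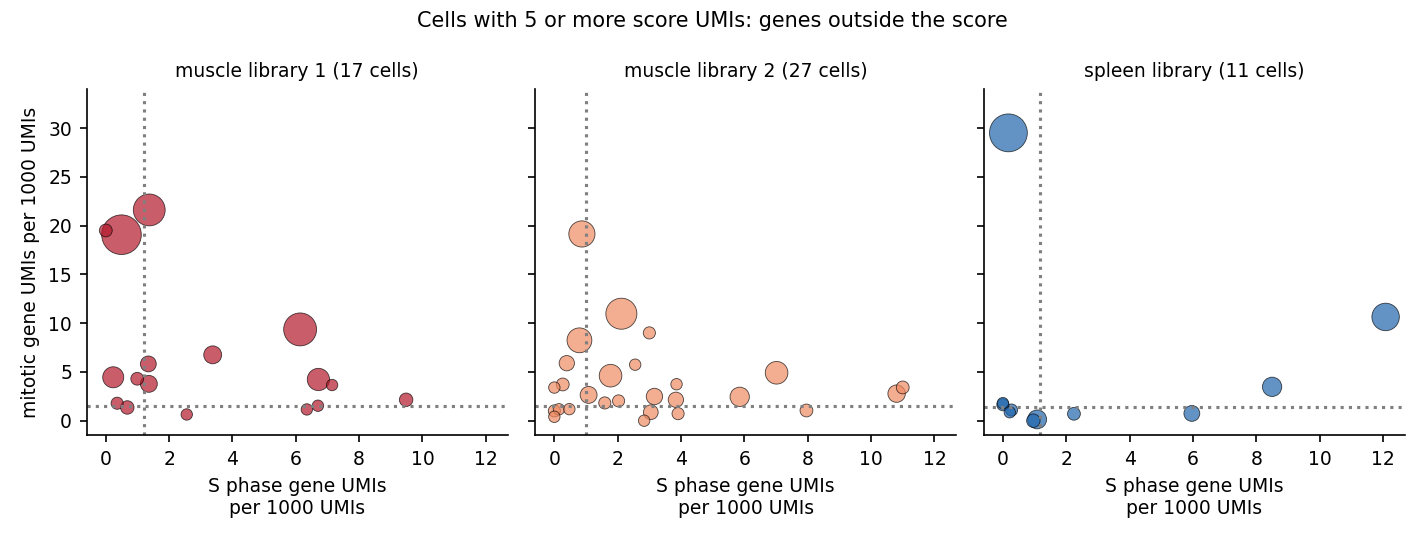
S phase gene UMIs (horizontal axis) and mitotic gene UMIs (vertical axis) per 1000 UMIs in each of the 55 high-score cells, score genes left out, with 1 panel per library and point area growing with the score; dotted lines mark the pooled level of cells with no score UMI. Cells spread along both axes, and the cell at the top of the spleen panel is the one with a score of 80.

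Set against the other cells of their own library, members had 39 genes that were higher by at least 2-fold in each of the muscle libraries, among 5728 genes with at least 100 UMIs and the score genes left out. That is 0.681% of the genes tested, and 1.94% were lower by the same rule. Of the 39, 14 belonged to the 5 lists of cell cycle genes (77 genes tested: S phase, nucleotide synthesis, mitosis, chromatin and tubulin), and none of the lower genes did. In spleen, 14 of the 39 (35.9%) were at least 2-fold higher too, where 11.1% of all tested genes were. Another 7 of the 39 were at least 2-fold lower there, where 15.6% of all were. Of the lower genes, 17 (15.3%) were at least 2-fold lower in spleen, so the lower set was not seen again there beyond its background. A further 13 of the lower genes were at least 2-fold higher in spleen. Without cells above 3 times the median UMI count of their library, 8 in place of 14 cell cycle genes were called higher; 9 members of muscle library 1 and 7 of muscle library 2, but 3 and 0 of the other cells, exceed that count. Doublets (droplets with more than 1 cell) were not called, and their part in this was not tested.

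The S phase genes stood out most. Of 16 tested, 7 were called higher and 0 lower, and the summed level of the whole list was 2869 CPM in members against 1217 in the other cells of muscle library 1 (2.36-fold, 2.14 to 2.59). It was 2496 against 1023 CPM in muscle library 2 (2.44-fold, 2.24 to 2.65) and 1785 against 1151 CPM in spleen (1.55-fold, 1.35 to 1.77). The median log2 fold of the tested S phase genes was 1.01, 1.25 and 0.61, against -0.05, -0.04 and -0.04 over all tested genes. Subunits of the MCM helicase, which unwinds DNA ahead of the fork, were prominent. Mcm5 stood at 137.6 CPM in members against 20.3 CPM in other cells of muscle library 1 and at 170.8 against 24.6 CPM in muscle library 2, and at 31.4 against 19.4 CPM in spleen. Its fold was 6.78 (3.85 to 11.95), 6.93 (4.53 to 10.7) and 1.62 (0.463 to 4.62), so the spleen value, from 5 UMIs of members, cannot be told from no difference. Mcm7 was 7.35-fold and 3.27-fold higher in the muscle libraries and Mcm3 3.27-fold and 6.57-fold. In spleen their folds were 1.44 (0.417 to 4.02) and 0.761 (0.232 to 1.96), from 5 UMIs of members each. Mcm6 was 2.18-fold and 3.36-fold higher in muscle, and in spleen its fold was 0.898 (0.537 to 1.44).

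Nucleotide synthesis had 2 of 14 genes called higher and 0 lower, with summed folds of 1.72, 1.53 and 1.22. Rrm1, the large subunit of ribonucleotide reductase, which makes the deoxynucleotides, had 196.5 CPM in members against 42.9 in other cells of muscle library 1, 131.9 against 34.8 in muscle library 2 and 188.5 against 19.4 in spleen. Members were higher in each, by 4.59-fold (2.98 to 6.99), 3.79-fold (2.49 to 5.74) and 9.70-fold (5.12 to 19.1), though 19 of the 30 Rrm1 UMIs of spleen members came from 1 cell. Dut, which removes dUTP before it can enter DNA, was 3.72-fold, 2.49-fold and 4.27-fold higher. Rrm1 lies on the plus strand of chromosome 7 at 102441695 to 102469771.

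Mitotic, chromatin and tubulin genes followed with smaller shares of called genes. Mitotic genes had 2 of 14 called higher, with summed folds of 2.31, 1.68 and 1.94 and median log2 folds of 0.82, 0.43 and 0.42, and chromatin genes 3 of 24, with 1.598, 1.49 and 1.26. Cks1b, a small partner of the cyclin-dependent kinases, had 33 UMIs in 7 members against 8 UMIs in the other cells of muscle library 1, 21 in 8 members against 9 in muscle library 2, and 19 in 4 members against 19 in spleen. In CPM, members were 26.95-fold (12.2 to 67.5), 11.1-fold (4.86 to 27.4) and 5.17-fold (2.59 to 10.3) higher. Cenpa, the histone of the centromere, was 2.09-fold, 2.25-fold and 4.08-fold higher. Hmgb2, a chromatin protein of dividing cells, had 668.2 CPM in members against 271.5 in other cells, 482.5 against 227.4 and 980.3 against 247.7, or 2.46-fold, 2.12-fold and 3.96-fold more. No tubulin gene of 10 met the rule in both muscle libraries, although Tubb5 was 1.47-fold, 2.36-fold and 2.26-fold higher. Tubulins, histones and Hmgb2 have close paralogs or pseudogenes, and the assignment of reads shared with them is not given in the sources used here.

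Few further genes with at least 200 UMIs were called higher. Prdx4, a peroxiredoxin of the endoplasmic reticulum, was 2.54-fold and 2.22-fold higher in muscle members, and its spleen level was 37.7 CPM in members against 37.6 CPM in other cells. Ranbp1, which helps Ran release its cargo at the nuclear pore, had muscle folds of 2.21 (1.55 to 3.11) and 2.28 (1.59 to 3.22), and its spleen fold was 0.470 (0.197 to 0.968). The lower genes that the rule names and that are reported here (BC037034, Sin3a, Ndel1, Iffo2, Jakmip1, Kdm4a, Ripk1, Trim12c, Map2k1, Kdm4c and Ip6k1) rest on 1 to 20 UMIs each in the members of a muscle library. For Sin3a, a scaffold of histone deacetylase complexes, members held 1 UMI against 91 in other cells of library 1 and 4 against 85 in library 2.

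High-score cells, against all cells of their library with a lower score, had 2.2% of the 5728 genes higher by at least 2-fold in each of the muscle libraries and 4.35% lower. In spleen 48.4% of the higher genes were at least 2-fold higher as well, where 15.5% of all tested genes were, and 18.9% of the lower genes were at least 2-fold lower, where 15.1% were. All 5 cell cycle lists had called genes: 10 of 16 S phase genes, 4 of 14 nucleotide synthesis genes, 6 of 14 mitotic genes, 8 of 24 chromatin genes and 3 of 10 tubulin genes were higher, and none of these lists had a lower one. The cells differ from the members above only by the bound of the score, which was chosen after the level by score was seen. Of the promoter windows of the higher genes, 15.3% held the E2F motif and 51.4% a CCAAT box, against 3.52% and 36.9% of the windows of genes with at least 100 UMIs. The CHR was in 18% against 11.6%. The median UMI count of high-score cells was 4695, 5198 and 6093, against 1952, 2461 and 3498.5 in the cells with a lower score.

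Replication genes were the most complete group. The summed S phase level was 4364 CPM in high-score cells against 1262 CPM in the rest of muscle library 1, 3549 against 1090 CPM in muscle library 2 and 3240 against 1112 CPM in spleen, which is 3.46-fold (3.09 to 3.87), 3.26-fold (2.95 to 3.59) and 2.91-fold (2.5 to 3.38). All of Mcm2, Mcm3, Mcm4, Mcm5, Mcm6 and Mcm7, the subunits of the helicase ring, were called higher, as were Pcna, the sliding clamp, Rfc2 of its loader, Lig1, the ligase of lagging strand fragments, and Rpa2 of the single-strand binding protein. Pcna had 791.4 CPM in high-score cells against 276.4 in the rest of muscle library 1 and 519.6 against 305.3 CPM in spleen, with folds of 2.86 (2.18 to 3.71), 2.54 (2.02 to 3.16) and 1.70 (1.16 to 2.43) over the 3 libraries. Mcm5 was 8.19-fold, 8.20-fold and 3.30-fold higher, the last from 4 UMIs. Rrm1 was 9.51-fold, 4.49-fold and 16.7-fold higher, with 19 of its 25 spleen UMIs in 1 cell, and Dut, Impdh2 and Gart of nucleotide synthesis were called with it.

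Mitotic genes outside the score came next. Their summed level was 3.72-fold (3.37 to 4.11), 2.27-fold (2.06 to 2.5) and 3.27-fold (2.87 to 3.71) higher in high-score cells, with 55.96% of the spleen UMIs in 1 cell. Cks1b had 384.1 CPM in high-score cells against 5.53 in the rest of muscle library 1, 88.04 against 9.61 in muscle library 2 and 168.1 against 29.4 in spleen. Cenpa was 4.49-fold, 2.52-fold and 3.96-fold higher, Bub3 of the spindle checkpoint 3.12-fold, 2.45-fold and 3.04-fold, and Racgap1 of the cytokinesis ring 2.30-fold, 5.13-fold and 9.34-fold. The spleen values rest on few cells: Bub3 had 13 UMIs in 2 high-score cells. Racgap1 had 12 UMIs in 2 spleen members, 10 of them in 1 cell. Incenp, the scaffold of the chromosomal passenger complex, and Ckap5, which builds spindle microtubules, completed the 6. Ckap5 was called by the muscle libraries, with 1 UMI in the spleen cells.

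Histone variants and tubulins were higher too. H2afz, a histone H2A variant, had 2514 CPM in high-score cells against 717.2 in the rest, 1917 against 659.8 and 2277 against 1078, or 3.51-fold (3.01 to 4.06), 2.91-fold (2.54 to 3.31) and 2.11-fold (1.77 to 2.51) more. It was detected in 16 of 17, 27 of 27 and 11 of 11 high-score cells, the widest of the chromatin genes named. These counts are not at equal depth, and high-score cells hold more UMIs than the rest. Hmgb2 was 3.88-fold, 3.17-fold and 6.92-fold higher. Tuba1b, an alpha tubulin, was 2.90-fold, 2.22-fold and 3.13-fold higher and Tubb5, a beta tubulin, 2.33-fold, 2.70-fold and 3.74-fold. Dnmt1, which copies DNA methylation to the new strand, was 4.00-fold, 3.21-fold and 1.96-fold higher, and Ezh2, the methyltransferase of Polycomb, 2.84-fold, 2.83-fold and 6.17-fold.

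**Figure D4:**
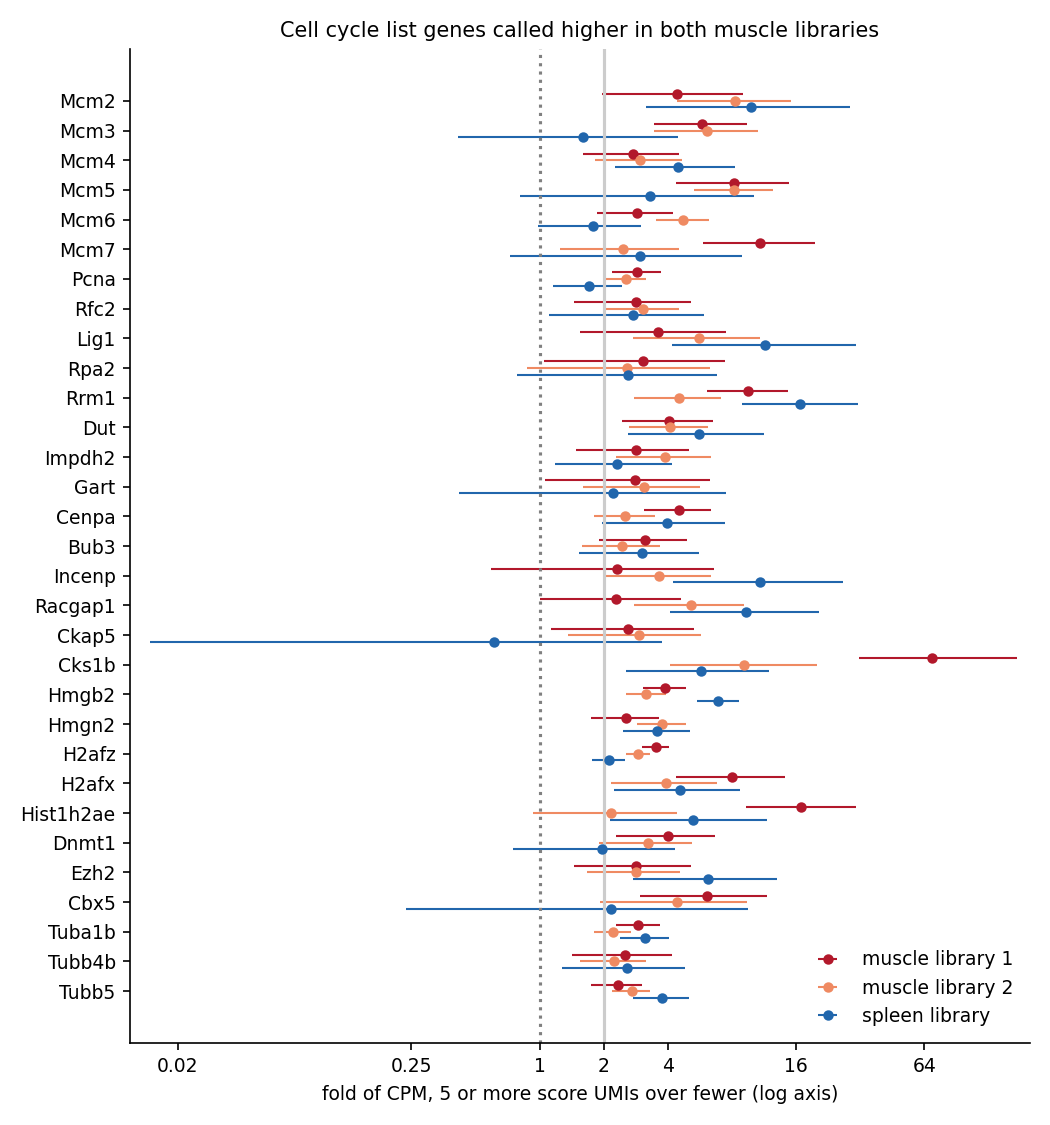
Fold of CPM in high-score cells over the rest of the same library (horizontal log axis) for the 31 cell cycle list genes called higher in both muscle libraries, score genes left out, in the order of their lists; bars are exact binomial intervals and the grey line marks 2-fold. Cks1b reaches 69.5-fold in muscle library 1, and spleen intervals are wide, reaching 0.0148 for Ckap5 with 1 UMI.

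Genes of quiescence were lower in high-score cells. Of 20 tested, 7 were called lower and 0 higher: Btg1, Btg2, Cdkn1b, Klf2, Klf4, Foxp1 and Txnip. The summed level was 2409 CPM in high-score cells against 4776 in the rest of muscle library 1, 2411 against 4350 in muscle library 2 and 3897 against 5914 in spleen, a fold of 0.504 (0.437 to 0.579), 0.554 (0.497 to 0.616) and 0.659 (0.579 to 0.747). Btg1, an antiproliferative factor, had 314.2 CPM in high-score cells against 1039 in the rest, 460.5 against 933.4 and 1085 against 1556. Its fold was 0.302 (0.199 to 0.442), 0.493 (0.381 to 0.629) and 0.697 (0.542 to 0.885), so spleen went the same way by less than 2-fold. Cdkn1b, the p27 inhibitor of the cyclin-dependent kinases, had folds of 0.449, 0.161 and 0.595, from 8, 4 and 9 UMIs. The median log2 fold of the list was -1.12, -0.99 and -0.67. In members as a whole no quiescence gene met the rule, and the summed fold was 0.705, 0.692 and 0.9501.

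Early response genes were lower in muscle members too. The summed level of immediate early genes was 7051 CPM in members against 11730 in other cells of muscle library 1, 8061 against 11580 in muscle library 2 and 5756 against 6579 in spleen. That is 0.601-fold (0.569 to 0.635), 0.696-fold (0.668 to 0.725) and 0.875-fold (0.815 to 0.939), although only Egr1, an early zinc finger factor, met the rule among members as lower and Egr2, its relative, as higher. Egr1 had 68.8 CPM in members (14 UMIs) against 209.1 CPM in other cells, and the same comparison gave a fold of 0.417 in muscle library 2 (26 UMIs) and of 0.647 in spleen (12 UMIs). Egr2 rests on 8 UMIs in 3 cells and 15 UMIs in 2 cells of the muscle libraries. In high-score cells Egr1 was called lower with Fos and Fosb, subunits of the AP-1 factor. Egr1 had 0 UMIs in the 17 cells of muscle library 1, which makes it 5.78-fold lower when those cells are set to a floor of 3 counts. NF-kB and TNF receptor genes had summed folds of 0.739, 0.777 and 0.985 with no gene of 16 called.

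Genes of growth were higher in muscle members, mostly by less than 2-fold, and the glycolysis and nucleolar lists were not above 1 in spleen members. Ran, the GTPase of nuclear transport, was 1.91-fold, 2.17-fold and 0.944-fold in members and 2.91-fold (2.30 to 3.65), 3.65-fold (3.004 to 4.41) and 1.81-fold (1.29 to 2.49) in high-score cells, where it was called with Ranbp1. Respiratory chain genes had summed folds of 1.26, 1.26 and 1.18 in members and of 1.41, 1.45 and 1.44 in high-score cells, with Atp5k, a subunit of ATP synthase, the single gene of 30 called. Proteasome genes had 1.25, 1.20 and 1.04 in members and none of 27 was called. Glycolysis genes had 1.26, 1.24 and 0.985, and nucleolar genes 1.30, 1.21 and 0.735. In spleen the nucleolar fold lay below 1 (0.669 to 0.807), against the direction in muscle, and that difference was not tested. The median log2 fold of the nucleolar list over both muscle libraries, 0.37, was -0.23 for members chosen at 1000 UMIs and -0.01 without cells above 3 times the median UMI count. G1 regulators stayed near 1 at 1.06, 0.999 and 1.14, with none of 11 called.

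**Figure D5:**
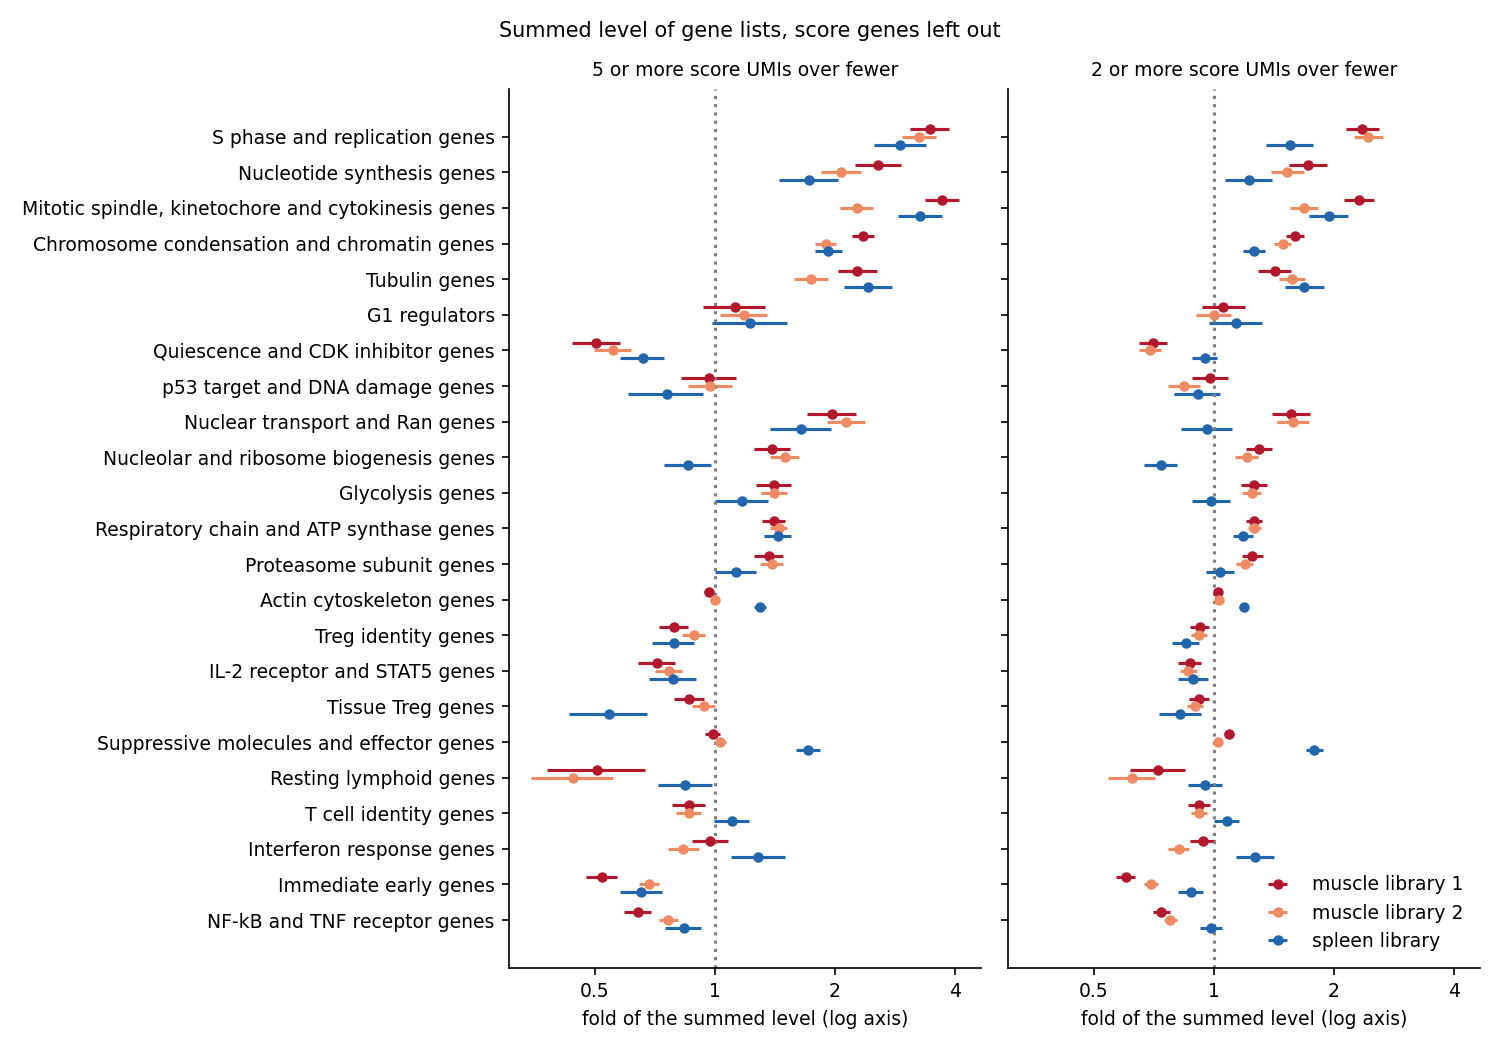
Fold of the summed level of gene lists (horizontal log axis) in high-score cells over the rest (left) and in members over other cells (right) of the same library, score genes left out; bars are exact binomial intervals. In muscle the S phase and mitotic lists lie farthest to the right and the quiescence, resting and immediate early lists farthest to the left among the lists plotted, in both panels, and lists of other cell types are not plotted.

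Treg markers were present in members. At 1000 UMIs per cell, Foxp3 was detected in 33.3% of members against 38.2% of other cells in muscle library 1, in 32.9% against 36.03% in muscle library 2 and in 26.5% against 19.6% in spleen. The intervals overlap in each library. Over all UMIs the Foxp3 level of members was 353.8 CPM against 585.1 CPM in muscle library 1 (0.605-fold, 0.468 to 0.770), 497.5 against 562.9 CPM in muscle library 2 and 477.6 against 347.3 CPM in spleen (1.38-fold, 1.05 to 1.78), so the libraries did not share a direction. Treg identity genes had summed folds of 0.922, 0.917 and 0.850, and none of 13 was called. In high-score cells these folds were 0.788 (0.723 to 0.858), 0.884 (0.828 to 0.943) and 0.788 (0.697 to 0.888), again with no gene called. Cd4 was detected in 27.8% of members against 33.3% of other cells, in 29.3% against 35.2% and in 29.4% against 20.9%.

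Genes that mark subsets of muscle Tregs were found in members and in other cells. Il1rl1, the receptor for interleukin 33 (ST2), was detected in 14.8% of members against 12.5% of other cells in muscle library 1 and in 20.7% against 13.1% in muscle library 2, at 1000 UMIs per cell. Klrg1, an inhibitory receptor of differentiated cells, was detected in 42.6% against 28.8% and in 36.6% against 34.5%. Areg, the repair growth factor amphiregulin, was detected in 27.8% against 20.7% and in 15.9% against 17.4%. Gzmb, the protease granzyme B, was detected in 57.4% against 46.8% and in 40.2% against 44.1%. The intervals of members and other cells overlap for each of these 4 genes in both muscle libraries. Over all UMIs the level differed beyond counting error in 1 library for some of them: Klrg1 was 1.26-fold higher in members of muscle library 1 (1.05 to 1.49), Il1rl1 was 1.42-fold higher in those of muscle library 2 (1.09 to 1.82) and Gzmb was 0.847-fold there (0.777 to 0.923). In the 17 and 27 high-score cells of muscle library 1 and then 2 at 1000 UMIs, Klrg1 was detected in 35.3% against 29.8% of the rest and in 55.6% against 33.9%. Il1rl1 was detected in 23.5% against 12.4% and in 22.2% against 13.6%. Areg was detected in 35.3% against 20.9% and in 14.8% against 17.3%, and Gzmb in 47.1% against 47.7% and in 40.7% against 43.8%. The intervals overlap for each of these genes. Tissue Treg genes as a list had summed folds of 0.919, 0.899 and 0.823 in members, with none of 18 called.

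Spleen members carried more of the effector genes than the spleen cells beside them. The suppressive and effector list summed to 14050 CPM in members against 7869 in other cells of spleen, 1.79-fold (1.70 to 1.87), with 7 of 24 genes at least 2-fold higher and 3 lower, where 11.1% and 15.6% of all tested genes were. The same list was 1.09-fold and 1.02-fold in the muscle libraries. Vim, the intermediate filament vimentin, was detected in 21 of 34 spleen members and had 1307 CPM in them against 400.8 CPM in other spleen cells (3.26-fold, 2.73 to 3.89). S100a6, a calcium binding protein, was 2.62-fold higher (2.33 to 2.93) and Fgl2, a secreted suppressor, 4.23-fold (2.45 to 7.26). Gzmb was 2.80-fold higher (2.15 to 3.61), but its 94 UMIs came from 6 cells, and at equal depth it was detected in 14.7% of members (5 of 34) against 3.56% of other spleen cells (1.55 to 6.89). Lgals1, the lectin galectin-1, was higher in all 3 libraries, at 1.65-fold, 1.84-fold and 1.93-fold. Areg went the other way in spleen, with 50.3 CPM in members and a fold of 0.185 (0.0788 to 0.371). Il10 and Tgfb1, which encode suppressive cytokines, went the other way at 0.323-fold and 0.259-fold. All these values come from 1 spleen library and have no replicate check.

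Markers of CD8 and NK cells were higher in the same spleen members. Their summed level was 408.5 CPM in spleen members against 193.1 CPM in other spleen cells (2.12-fold, 1.56 to 2.84). In the high-score cells of spleen it went the other way, at 76.4 CPM against 238.8 CPM in the rest (0.32-fold, 0.103 to 0.758), while the effector list was 1.71-fold higher there (1.601 to 1.83). Across libraries, 3 of 10 markers (Cd8a, Eomes and Gzmk) were at 0 in members, and the part of the list in the effector levels of members was not tested. Spleen members held 3 UMIs of Klrd1 against 0 in other spleen cells, 6 of Klrb1c against 8 and 1 of Ncr1 against 0. Cd8a, Eomes and Nkg7 went the other way there, at 0 against 4, 0 against 6 and 3 against 20 UMIs. Klrb1c also had 5 UMIs against 0 in muscle library 1. Ccl5, a chemokine of effector T cells, gave 40 UMIs in 5 of the 34 spleen members, against 77 UMIs in other spleen cells, and 3 of the 40 were in high-score cells. In muscle the list stood at 191.6 CPM in members against 284.3 CPM in library 1 and at 182.8 against 245.8 CPM in library 2. Myeloid markers were at 0 in members for 10 of 17 genes, and stood at 383.3 to 560.4 CPM in members against 462.7 to 625.7 CPM in other cells. Spleen members held 7 Itgam UMIs against 6 in the more numerous other spleen cells, and 3 of Fcer1g against 2. Cd68 went the other way there, at 0 against 15 UMIs, as did C1qa, at 0 against 18. B cell markers were at 0 for 7 of 11, at 100.5 to 218.8 CPM against 100.8 to 226.2 CPM. Spleen members held 5 Cd79b UMIs against 8, but 0 of Ly6d against 11. Muscle and stromal markers were at 0 for 10 of 16, with 78.6 to 150.8 CPM against 90.2 to 144.5 CPM. Erythroid markers were at 0 for 3 of 7, with 25.1 to 83.9 CPM against 36.4 to 57.9 CPM. In muscle library 2 erythroid markers were higher in members, at 83.9 against 47.4 CPM (1.77-fold, 1.10 to 2.77), from 28 UMIs of members. Their fold was 0.594 in muscle library 1 and 0.690 in spleen, with intervals that include 1. The cause was not tested.

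Members of muscle and members of spleen differed, and the smaller part of the genes called also met the rule between the other cells of the tissues. Of 2498 genes with at least 50 UMIs in members, 250 (10%) were higher by at least 2-fold in the members of both muscle libraries than in spleen members, and 95 (3.8%) were lower (8.61% and 5.2% when ribosomal protein genes were left out of the totals). The same rule on the other cells called 6.53% higher and 37 (1.48%) lower of these genes, and 71 of the 250 (28.4%) and 16 of the 95 (16.8%) were among them. The 34 spleen members serve both muscle libraries, so the counts share them. Tissue Treg genes were higher in muscle for 9 of 14 among members, and for 8 of these 14 genes among other cells. Of 5 resting lymphoid genes, 3 were lower in muscle in either set. Muscle was digested with enzymes and spleen was dissociated mechanically, so tissue and preparation cannot be told apart.

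Some lists differed between the tissues to another extent in members than in the other cells. Suppressive and effector genes were higher in muscle for 5 of 20 among members, at 29870 and 26540 CPM against 14050 CPM in spleen, and for more of them, 15 of 20, among other cells. Quiescence genes were lower in muscle for 5 of 16 among members, at 3405 and 3072 CPM against 5536 CPM, and for 0 of 16 among other cells. S phase genes were higher in muscle for 3 of 10 among members and for 0 among other cells. The summed S phase level of high-score cells was 4364 and 3549 CPM in muscle against 3240 CPM in spleen. With 3 to 4 score UMIs it was 2461 and 3139 CPM against 662.4 CPM, so the tissues stood farther apart in that band. None of these contrasts was tested.

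Single genes with the largest differences between members of the tissues were named by rule, and not all of them differed in the other cells. Ccr7, the receptor that leads cells to lymph nodes, had 1 UMI in members of muscle library 1 and 14 UMIs in those of library 2, against 88 UMIs in spleen members. In CPM it was 112.5 times lower (19.7 to 4495) and 13.2 times lower (7.45 to 25.1) in muscle members, and 8.25 and 7.61 times lower in the other cells of muscle. S1pr1, the receptor for egress into blood, was 9.05 times lower (5.04 to 17.6) and 4.71 times lower (3.22 to 6.98) in muscle members than in spleen members, and 2.09 and 2.61 times lower among other cells. Prkcb, a protein kinase C, was 4.48 and 5.50 times lower and Top2b, a topoisomerase that cells also use outside division, 4.26 and 4.19 times lower. Among other cells Prkcb was 4.35 and 3.84 times lower in muscle, and Top2b, at 1.37 and 1.79 times lower, did not meet the rule. Lmna, which encodes the A-type lamins of the nuclear envelope, had 481.5 and 506.4 CPM in muscle members and 0 UMIs in spleen members. With a floor of 3 counts for the spleen members the ratios were 25.5 and 26.9, and the lower bounds of the intervals were 20.4 and 21.6. Arnt2, Psmd7, Ctla2b and Stx11 were the next by this rule, and spleen members held only 1 or 2 UMIs of each, so the ratio for Arnt2 in muscle library 1 was 22.7 with an interval of 3.76 to 926.1. In the other cells the folds of muscle over spleen were 1.01 and 0.723 for Psmd7 and 1.09 and 1.24 for Stx11, which is under the rule, while Lmna, Arnt2 and Ctla2b met it there too. Crtc3, a coactivator of CREB, was 5.63 and 4.19 times lower in muscle members, but 1.31-fold and 1.54-fold higher in the other cells of muscle.

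Over the whole series the libraries held 1533277, 1916496 and 982570 UMIs, of which members held 13.3%, 17.4% and 16.2%. Mapped reads per UMI were alike, at 19.5 against 19.9, 36.6 against 35.9 and 42.7 against 43.2. Muscle libraries 1 and 2 shared 11 cell barcodes and muscle library 1 and spleen 1, which touches 3 members.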

How the data were processed

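Single Foxp3-GFP+ Tregs of 2 muscle libraries and 1 spleen library (674, 694 and 259 cells) were analysed as the authors deposited them: a single table of unnormalised UMI counts with 23725 genes and 1627 cells. TopHat2, SAMtools and mm10 are named in the submitters' processing notes, without versions. Every count was used as deposited and no cell was removed.

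UMI counts were summed over members and over other cells of each library and scaled to CPM. A gene was called where its fold was at least 2 in the same direction in both muscle libraries and it had at least 100 UMIs. Ratios have exact conditional binomial intervals, levels Poisson and shares Clopper-Pearson intervals, all 95%. Each UMI stands for a captured molecule, so intervals cover counting error only, not the spread between animals. Thinning drew 1000 UMIs per cell without replacement (seed 1). Members, gene lists and tests were chosen with earlier results of these data known. Named genes are the 12 higher and 12 lower with at least 200 UMIs and the largest smaller fold of the muscle libraries, predicted genes, ribosomal protein genes and T cell receptor segments left out (7 higher and 22 lower passed), up to 4 of each of 28 lists, and 5 each way between the tissues; 1 gene among the 12 lower is not reported here. Genes named for high-score cells, and the effector genes of spleen, were chosen after their values were seen. The code was tested on simulated data, which does not calibrate the calls. Alternatives changed scaling, minimum, fold, weighting, score and cells. SciPy 1.17.1, pandas 2.3.3 and NumPy 2.4.6 under Python 3.11.15, and R 4.3.3, were used, with edgeR 4.0.16 and DESeq2 1.42.0 for scaling factors only.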

Additional observations from a re-analysis of the deposited data

Results flagged for a closer look

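Some values went one way in both muscle libraries and the opposite way in spleen. Single genes were screened for this only if the rule for named genes picked them. Among all called genes, 7 of the 39 higher were at least 2-fold lower in spleen, where 15.6% of all tested genes were. Of the lower genes, 13 were at least 2-fold higher in spleen, where 11.1% of all were. Each spleen value is from 1 library, and the difference was not tested for any of them. Ranbp1, the partner of Ran, was at least 2-fold higher in muscle members, and its log2 fold in spleen was -1.09. All 8 of its spleen member UMIs lay in high-score cells, where its spleen fold was 1.27 (0.533 to 2.62), so the opposite direction was not seen there. Egr2, an early response factor, was also higher in muscle members, and its spleen log2 fold was -2.38, from 2 UMIs of members. The other 2 named genes flagged here were lower in muscle members and higher in spleen: the spleen log2 fold was 1.37 for Iffo2 and 0.86 for Trim12c. The nucleolar list was above 1 in both muscle libraries, and its summed fold in spleen was 0.735. T cell identity genes were below 1 in both muscle libraries, and their summed fold in spleen was 1.08. The CD8 and NK cell marker list was below 1 in both muscle libraries, and its summed fold in spleen was 2.12. In high-score cells its fold was 1.03 and 0.385 in muscle and 0.32 (0.103 to 0.758) in spleen, so spleen did not stand opposite to both muscle libraries there.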

How the results depend on the processing

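No named gene that was called changed the sign of its mean muscle log2 fold under an alternative, but 26 named genes that were not called did. Of 24 lists, 6 had a median over muscle that changed sign under at least 1 alternative: effector, G1, p53, nucleolar, glycolysis, and CD8 and NK genes, with values between -0.44 and 0.39. The share of tested genes called followed the settings. In the order higher, lower, cell cycle genes higher, the 0.681%, 1.94% and 14 genes became 1.26%, 2.19% and 25 with a minimum of 50 UMIs, 0.221%, 0.663% and 5 with a minimum of 200, and 3.95%, 6.83% and 28 at 1.5-fold. Asking for all 3 libraries left 0.244% higher and 0.297% lower. Members chosen at 1000 UMIs gave 1.59% and 3.11%, and 18 and 11 of these genes were among the first calls. A score of 3 or more gave 1.59%, 3.53% and 25, a score of 5 or more 2.2%, 4.35% and 31, and at least 2 different score genes 1.41% higher and 25 cell cycle genes. Without cells above 3 times the median UMI count 8 cell cycle genes were called. With a single muscle library, 3.53% to 4.87% were higher, 8.45% to 11.1% lower and 23 cell cycle genes higher. TMM, DESeq2 and 2 other totals gave 42 to 47 higher, 39 of them shared in each. Between muscle and spleen members, the 10% higher and 3.8% lower became 18.8% and 11.7% at 1.5-fold, and 14.6% to 14.7% and 8.37% to 9.49% with 1 muscle library.

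The S phase median log2 fold over both muscle libraries was 1.0, and 1.18 with a minimum of 50 UMIs, 0.77 with equal weight per cell, 0.63 thinned, 1.33 and 1.5 with scores of at least 3 and 5, 0.52 without Stmn1 in the score, 0.49 without the deepest cells, 1.17 with 2 score genes and 1.01 to 1.25 with 1 library. The mitotic median was 0.82, and 1.43 thinned, 1.39 with a score of at least 5 and 0.43 to 0.82 with 1 library. The fold of cell cycle genes outside the score was 2.33 in muscle library 1, 1.99 in muscle library 2 and 1.77 in spleen. In that order it was 2.14, 1.73 and 1.55 with equal weight per cell, 2.83, 2.44 and 3.24 thinned, 3.0, 2.58 and 2.05 with a score of at least 3, 3.6, 2.68 and 3.11 with at least 5, 3.53, 2.69 and 2.25 for these without the top cell, and 2.71, 2.30 and 2.68 with 2 score genes. It was 1.99 and 1.82 in muscle without the deepest cells, 1.82 in muscle library 2 without Stmn1 and 1.4 in spleen without the top cell. The thinned shares of 3.55%, 3.93% and 5.41% were 5.54%, 5.92% and 7.32% at 1500 UMIs, 2.70% in spleen at the UMI count of the shallowest cell, 12.81%, 13.97% and 15.44% with at least 1 score UMI, 1.85%, 1.601% and 2.70% with 3, 1.08%, 0.728% and 0.772% with 5, and 8.16%, 11.96% and 13.13% unthinned. The ratio of median UMIs of members to other cells, 1.398, 1.18 and 1.10 for members chosen at 1000 UMIs, was 1.56, 1.57 and 1.29 unthinned and 1.59, 1.39 and 1.42 at 1500, and at the depth of the shallowest cell it was 1.52 in spleen and reversed to 0.947 in muscle library 2. The cause of these changes was not tested. No paired analysis was possible because no value comes from a test: members and other cells were compared within each library, and the labels do not say that the libraries come from different animals.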

Other observations

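Gene groups outside the cell cycle were also read in high-score cells. Resting lymphoid genes were lower in muscle, with 3 of 12 called lower and none higher. S1pr1 had 74.5 CPM in high-score cells against 195.6 CPM in the rest of muscle library 2 and 412.6 against 538.6 CPM in spleen, and in muscle library 1 it had 23.3 CPM (2 UMIs) and a fold of 0.0982. Il7r, the receptor for interleukin 7, which keeps resting T cells alive, had folds of 0.298 (0.148 to 0.538), 0.402 (0.25 to 0.614) and 0.648 (0.341 to 1.13). Satb1, a chromatin organiser of T cells, was the third gene called. IL-2 receptor and STAT5 genes summed to 0.715-fold (0.643 to 0.793), 0.765-fold (0.709 to 0.825) and 0.785-fold (0.682 to 0.899), and none of 13 was called. Of p53 targets, 1 of 12 was called lower, Sesn1, with summed folds of 0.968, 0.972 and 0.756.

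Interferon response genes had no call among 20, in members or in high-score cells. Their summed fold in members was 0.937 (0.871 to 1.01), 0.816 (0.767 to 0.868) and 1.27 (1.14 to 1.41). Ifi27l2a, an interferon-induced gene, had 1617 CPM in members against 1489 CPM in other cells of muscle library 1, 1426 against 1575 CPM in muscle library 2 and 974.0 against 671.6 CPM in spleen. T cell identity genes had summed folds of 0.918, 0.918 and 1.08 in members. Actin cytoskeleton genes had 1.03, 1.03 and 1.19, with none of 20 called, so the most abundant structural genes of these cells stood close to level in muscle.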
